A study of Mus musculus with 4 samples.

Results

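Lipid-associated macrophages are the tumor macrophages that switch on a module of genes for taking up and handling lipid and cell debris, and the genes described here are the 7 most used to recognise them: Trem2, Apoe, Lpl, Gpnmb, Spp1, Fabp5 and Lgals3. They were taken by symbol, 7 of the 32285 genes of the CD45 sort and of the 31053 genes of the T cell sort, and each matched 1 row in both tables. The list names them by symbol and sets no limit on a measured value. TREM2 is a surface receptor that binds lipids and lipoproteins and signals through the adaptor TYROBP, and apolipoprotein E is among the particles it binds. Lipoprotein lipase frees fatty acids from lipoproteins at the cell surface, and FABP5 carries fatty acids inside the cell. GPNMB is a membrane protein of lysosomes and melanosomes, osteopontin (the product of Spp1) is a secreted ligand of integrins and CD44, and galectin-3 (Lgals3) is a sugar-binding protein abundant in phagocytes.

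The cells came from wild-type C57BL/6 mice that carried subcutaneous B16-F10 melanoma on the flank. The tumor cells were 1 single-cell clone that held a lentiviral, doxycycline-inducible ZsGreen (ZsG) cassette, all animals drank doxycycline before harvest, and tumors were taken on day 8, so ZsG inside an immune cell marked material from the tumor. One sort took CD45+ tumor-infiltrating cells and the other CD45+ TCRb+ cells (the T cell sort), and cells of each sort with and without ZsG gave 1 library of 3′ transcript counts apiece, 4 libraries in all. In the T cell sort the label of the pooled files puts the ZsG-positive library first, which is the order used here. The numbers in the library names run the other way, and were that order true, every difference between its gates would change sides. In the order used here, 97 of 780 ZsG-positive and 30 of 659 ZsG-negative T cells were named regulatory from markers. Cells named exhausted CD8 numbered 85 and 35, and naive-like cells 43 and 87. The study reports regulatory and exhausted CD8 T cells enriched, and naive-like T cells underrepresented, in its ZsG-positive sample. The ages of the mice and the number of tumors pooled in a library are not given in the sources used here, and the study states that most ZsG-positive lymphocytes of the CD45 sort fell into its ZsG-negative gate. With 1 library per gate there was no replicate, so no test was made and no value describes the spread between mice. Every interval is a 95% interval for counting error only (exact Poisson for a level, exact binomial for a share of cells, exact conditional for a ratio). A unique molecular identifier (UMI) stands for a captured transcript molecule, and a level is the UMIs of a gene per 1000000 UMIs of the same cells (CPM). A member was counted as apart between 2 groups of cells when its levels differed at least 2-fold with at least 20 UMIs over both.

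After filtering, the CD45 libraries held 4699 ZsG-negative and 4123 ZsG-positive cells and the T cell libraries 948 and 1879 cells, with 7982108 to 50427199 UMIs per library and medians of 5769 to 9928 UMIs per cell. Cells were clustered without the 7 genes and named "-like" from other markers, of which C1q macrophage-like cells of the ZsG-positive CD45 library carried 8 of 8 and hypoxic macrophage-like cells 9 of 10 in more than 10% of cells. These macrophage classes came from the ZsG-positive gate: the CD45 libraries held 1612 C1q macrophage-like and 414 hypoxic macrophage-like cells there, against 0 and 2 in the ZsG-negative gate, so ZsG and macrophage class cannot be told apart for them. Clusters that joined markers of 2 lineages were called mixed and left out (165 and 741 cells of the CD45 sort, 12 and 50 of the T cell sort). The doublet caller marked at most 0.585% of a library, but it did not work here and sets no limit on doublets. Pairs of libraries shared 0 to 5 barcodes. The 7 genes together took 0.0605% of the UMIs of the ZsG-negative and 0.714% of those of the ZsG-positive CD45 library, and 0.278% and 0.305% in the T cell sort.

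The genes lie on 7 different chromosomes of GRCm38. Trem2 (ENSMUSG00000023992) occupies chr17:48346401-48354147 on the plus strand with 5 exons, Apoe (ENSMUSG00000002985) chr7:19696109-19699188 on the minus strand, and Lpl (ENSMUSG00000015568) chr8:68880491-68907448 on the plus strand with 10 exons. Gpnmb (ENSMUSG00000029816) occupies chr6:49036546-49070929 with 11 exons, Spp1 (ENSMUSG00000029304) chr5:104435118-104441050, Fabp5 (ENSMUSG00000027533) chr3:10012548-10016607 with 4 exons and Lgals3 (ENSMUSG00000050335) chr14:47367751-47386160 with 6 exons, each on the plus strand. Promoter windows of RefSeq on GRCm38.p6, the 250 bases before an annotated start, were at hand for 5 of the 7, and those of the 3 genes whose patterns part most clearly below are shown 5′ to 3′ in lower case with motif matches in capitals. The windows lie at chr17:48346151-48346400 (Trem2), chr6:49036268-49036517 (Gpnmb) and chr5:104434861-104435110 (the first of the Spp1 starts), all on the plus strand.
Trem2: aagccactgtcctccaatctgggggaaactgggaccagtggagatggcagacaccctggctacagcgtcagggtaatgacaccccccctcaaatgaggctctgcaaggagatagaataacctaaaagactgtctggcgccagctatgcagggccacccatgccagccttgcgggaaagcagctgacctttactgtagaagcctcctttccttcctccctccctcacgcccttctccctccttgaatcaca
Gpnmb: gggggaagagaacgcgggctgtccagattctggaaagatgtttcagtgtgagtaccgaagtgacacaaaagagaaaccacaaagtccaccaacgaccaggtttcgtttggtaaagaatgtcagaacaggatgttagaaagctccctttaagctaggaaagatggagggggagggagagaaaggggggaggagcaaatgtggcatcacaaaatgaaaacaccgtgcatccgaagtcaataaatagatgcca
Spp1: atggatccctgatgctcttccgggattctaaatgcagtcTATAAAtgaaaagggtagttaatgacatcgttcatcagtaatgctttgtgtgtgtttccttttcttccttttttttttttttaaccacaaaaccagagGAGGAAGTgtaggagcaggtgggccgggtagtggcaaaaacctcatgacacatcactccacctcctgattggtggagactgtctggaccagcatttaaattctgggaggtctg
The capitals in the Spp1 window mark TATAAA 211 bases and GAGGAAGT, a PU.1-type word, 113 bases before the start. Over both strands TATAAA occurs in 12.4% and GAGGAAGT in 2.44% of 32817 such windows. Of the members, TATAAA also occurs in 1 Apoe window, in overlapping copies 100 and 96 bases before that start. CACGTG (6.02% of windows), CATGTG (12.3%), ACGTG (16.6%, the core of the hypoxia element, also contained in CACGTG) and TGAGTCA (4.46%) occur in none of the members' windows. A match or its absence describes these letters in this window and nothing more.

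All 7 genes were found in both macrophage-like classes, but the class with the highest level differed from gene to gene. Over the 18 groups of cells of the CD45 sort (8 ZsG-negative and 10 ZsG-positive, each a class with at least 20 cells), Trem2 and Lpl were highest in C1q macrophage-like cells, Gpnmb and Lgals3 in hypoxic macrophage-like cells, Apoe in monocyte-like cells of the ZsG-negative gate, Fabp5 in mature dendritic cells and Spp1 in NK/ILC-like cells of the ZsG-positive gate, a rank that rests on 1 of 25 cells and passes to hypoxic macrophage-like cells without it. The order below counts 2 neighbours as alike in level when their counting intervals overlap.

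Trem2, the receptor, reached 231 CPM (225 to 237) in C1q macrophage-like, 122 (110 to 135) in hypoxic macrophage-like and 48.5 (43.0 to 54.6) in classical monocyte-like cells of the ZsG-positive CD45 library. Non-classical monocyte-like cells held 109 CPM (71.2 to 160) in the ZsG-positive and 61.0 (49.6 to 74.2) in the ZsG-negative gate, and the 40 classical monocyte-like cells of the ZsG-negative gate 34.8 (18.0 to 60.7). Of these steps only the first was free of overlap: C1q macrophage-like cells stood above every other class, while hypoxic macrophage-like and non-classical monocyte-like cells overlapped. Dendritic, NK and T cell-like classes had 0 to 17.0 CPM. In the ZsG-negative NK and T cell-like cells, which should not express the receptor, Trem2 had 0.327 and 0.575 CPM.

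Apoe, which codes for the lipoprotein ligand of TREM2, did not separate macrophages from monocytes. Its highest levels were 2110 CPM (1959 to 2269) in classical and 1971 (1903 to 2040) in non-classical monocyte-like cells of the ZsG-negative gate, and 1747 (1584 to 1923) in non-classical monocyte-like cells of the ZsG-positive gate. C1q macrophage-like cells had 1714 CPM (1697 to 1731), hypoxic macrophage-like cells 1461 (1420 to 1504) and ZsG-positive classical monocyte-like cells 1364 (1334 to 1394). The next class in the order, pDC-like cells of the ZsG-positive gate, was far below at 203 CPM (136 to 292).

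Lpl, the lipase, fell in clear steps from 1446 CPM (1431 to 1462) in C1q macrophage-like to 908 (883 to 933) in classical monocyte-like and 574 (548 to 600) in hypoxic macrophage-like cells of the ZsG-positive gate, with no overlap between neighbours. Monocyte-like cells of the ZsG-negative gate held less, 154 CPM (115 to 201) in classical and 110 (94.9 to 128) in non-classical cells. Lpl was also found in DC1-like (188 CPM, 164 to 214) and DC2-like cells (120, 107 to 134) of the ZsG-positive gate, and was near 0 in every lymphoid class of the ZsG-negative gate.

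Gpnmb, the lysosomal and melanosomal glycoprotein, was highest in hypoxic macrophage-like cells at 131 CPM (119 to 144), above 27.3 (25.2 to 29.5) in C1q macrophage-like and 14.5 (11.6 to 18.0) in classical monocyte-like cells, again without overlap. All other classes of the CD45 sort had 0 to 4.39 CPM.

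Spp1 was found in myeloid and in NK/ILC-like cells. Hypoxic macrophage-like cells held 807 CPM (777 to 839), C1q macrophage-like cells 499 (490 to 508) and classical monocyte-like cells of the ZsG-positive gate 150 (140 to 160), whereas the classical monocyte-like cells of the ZsG-negative gate had no UMI among 40 cells. NK/ILC-like cells held 279 CPM (271 to 288) in the ZsG-negative gate, where 2507 of them were measured, and 1610 (1448 to 1785) in the ZsG-positive gate, where there were 25. One of those 25 cells held 269 of the 361 UMIs, and the level without it was 443 CPM. That was below hypoxic macrophage-like cells, but on so few UMIs it could not be told apart from C1q macrophage-like cells.

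Fabp5, the fatty acid carrier, was highest in the 49 mature DC-like cells of the ZsG-positive gate at 3590 CPM (3418 to 3768), followed by hypoxic macrophage-like cells at 2898 (2840 to 2958) and C1q macrophage-like cells at 952 (940 to 965). Lgals3 was the most widely spread gene, with 8001 CPM (7904 to 8099) in hypoxic macrophage-like, 3735 (3710 to 3760) in C1q macrophage-like and 3055 in classical monocyte-like cells, and 1600 to 2408 CPM in DC1- and DC2-like cells of either gate. NK and T cell-like cells of the ZsG-negative gate had 61.5 and 152 CPM of Lgals3.

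**Figure D1:**
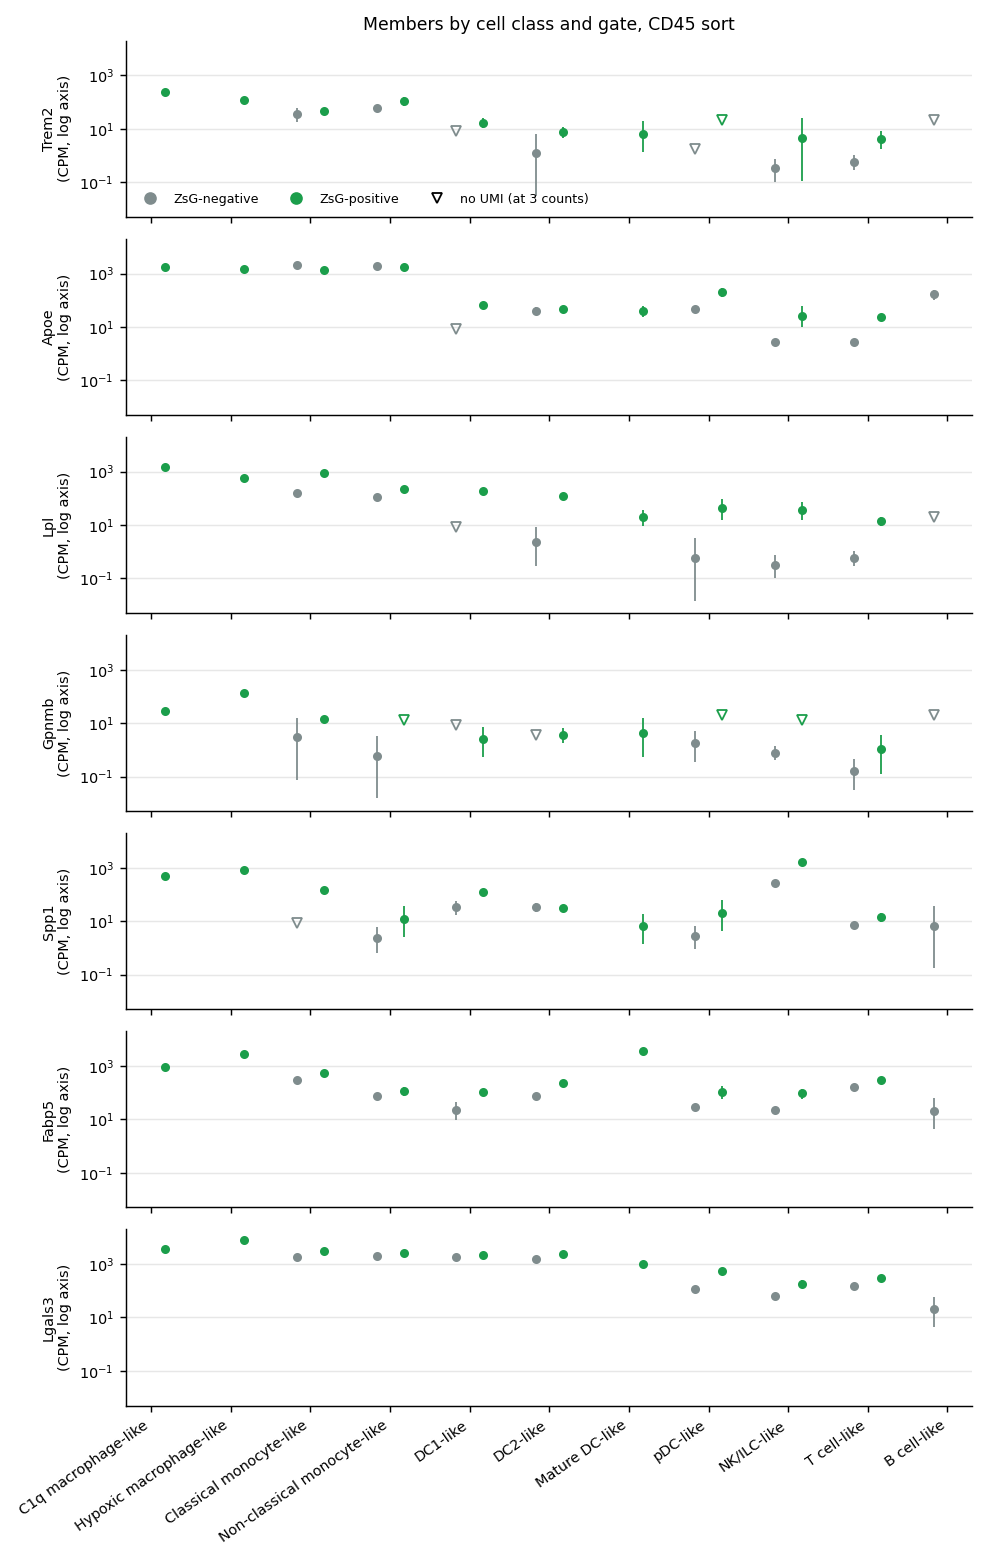
Level of each member (CPM, log axis, 1 panel per gene) by cell class of the CD45 sort in the ZsG-negative (grey) and ZsG-positive (green) library, for classes with at least 20 cells. Points are summed levels and bars exact Poisson 95% intervals; open triangles stand at 3 counts where no UMI was found. Trem2 and Lpl peak in C1q macrophage-like cells, Gpnmb and Lgals3 in hypoxic macrophage-like cells, and Spp1 and Fabp5 are also high outside the macrophages.

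The share of cells with a UMI gave the same picture at equal depth. Since the median C1q macrophage-like cell had 12456 UMIs and the median hypoxic macrophage-like cell 6610, each cell was thinned to 3000 UMIs and shallower cells were left out (16 of 1612 and 17 of 414). Trem2 was then found in 36.1% (33.7 to 38.5) of C1q macrophage-like, 25.4% (21.2 to 30.0) of hypoxic macrophage-like and 10.5% (8.38 to 12.9) of ZsG-positive classical monocyte-like cells, against 0.0899% of NK/ILC-like and 0.290% of T cell-like cells of the ZsG-negative gate (medians of 4581 and 6722 UMIs before thinning). Unthinned, the first 3 shares were 64.7%, 40.3% and 22.9%. Gpnmb was found in 5.14% (4.11 to 6.34) of C1q macrophage-like and 22.9% (18.9 to 27.4) of hypoxic macrophage-like cells (15.6% and 37.4% unthinned), and in 0.270% of ZsG-negative NK/ILC-like cells. Spp1 was found in 26.3% (24.2 to 28.5) and 42.3% (37.4 to 47.3), Fabp5 in 54.1% (51.7 to 56.6) and 79.8% (75.6 to 83.7), and Lpl in 81.8% (79.8 to 83.7) and 45.1% (40.1 to 50.1) of the same classes. Apoe did not differ by more than counting error between them, at 65.9% (63.5 to 68.2) and 68.3% (63.4 to 72.8), and Lgals3 was found in 99.1% and 100%.

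C1q macrophage-like cells were set against classical monocyte-like cells of the same ZsG-positive library to see which members mark the macrophage state. Of the 7 genes, 2 were at least 2-fold higher and none was lower, beside 19.7% of 11206 genes tested that were apart in either direction (14.7% higher, 5.02% lower). The median log2 ratio was 0.83 for the members and 0.21 for all genes tested. Trem2 was 4.75-fold higher (4.21 to 5.38) and Spp1 3.33-fold higher (3.11 to 3.58). Gpnmb was 1.88-fold (1.49 to 2.39), Fabp5 1.78-fold (1.71 to 1.85) and Lpl 1.59-fold (1.55 to 1.64) higher, and Apoe and Lgals3 differed by 1.26-fold and 1.22-fold. So the receptor and the secreted ligand parted the classes, while its partner Apoe was nearly level. Gpnmb and Fabp5 passed the 2-fold limit when the classes were drawn by the highest marker score, by a coarser clustering or with the members among the clustering genes, which makes 4 of 7.

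The monocyte side was itself uneven. Within the classical monocyte-like cells of the ZsG-positive gate, those of a smaller cluster led by the interferon-induced genes Ifit1bl1, Rsad2 and Ifit1 had 39.3 CPM of Gpnmb and 955 (906 to 1007) of Fabp5, against 6.1 and 393 (375 to 413) in the other 601, led by Dmkn, Vcan and Chil3. Spp1 was at 146 (127 to 167) and 151 (140 to 163) CPM in these clusters and did not differ beyond counting error. The smaller cluster also had more C1qa, a marker of the macrophage class, at 1110 against 164 CPM. Trem2 was at 69.0 (56.1 to 83.9) against 41.6 (35.7 to 48.2) and Lgals3 at 4383 against 2602, whereas Apoe was lower at 1134 against 1442. What part the C1q level had in these differences was not tested.

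The same comparison in the ZsG-positive library of the T cell sort, which caught 170 C1q macrophage-like and 62 classical monocyte-like cells, gave larger ratios for 5 of the 7 genes and smaller ones for Spp1 and Apoe. There 6 of 7 genes were at least 2-fold higher in the macrophage-like cells, beside 27.3% of 7949 genes (18.1% higher, 9.21% lower): Trem2 15.1-fold (8.15 to 31.6, from 738 and 10 UMIs), Fabp5 5.12-fold (4.49 to 5.87), Lpl 3.15-fold (2.75 to 3.62), Spp1 2.86-fold (2.53 to 3.24) and Lgals3 2.18-fold (2.05 to 2.31). Gpnmb had 310 UMIs against 0 and was at least 21.1-fold higher, counted against a floor of 3 UMIs. Apoe was again nearly level, 1.22-fold higher (1.15 to 1.30). In those monocyte-like cells 1 cell held 163 of the 273 Spp1 UMIs and 1 cell held 147 of the 231 Fabp5 UMIs. Without its richest cell the level was 205 in place of 500 CPM for Spp1 and 161 in place of 423 for Fabp5. That the Spp1 ratio was smaller than in the CD45 sort therefore rests on 1 cell.

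Hypoxic macrophage-like cells, named from genes such as Hilpda, Vegfa and Nos2, were set against C1q macrophage-like cells of the same library. The module split: 3 of 7 genes were at least 2-fold higher, 1 was lower and 3 were neither, beside 21.6% of 11142 genes tested (6.86% higher and 14.8% lower). The members' median log2 ratio was 0.69, and that of all genes -0.25. Gpnmb was 4.79-fold (4.23 to 5.43), Fabp5 3.04-fold (2.97 to 3.12) and Lgals3 2.14-fold (2.11 to 2.17) higher, whereas Lpl was 2.52-fold lower (2.41 to 2.64). Trem2 was 1.89-fold lower (1.70 to 2.10), just short of the limit, Spp1 1.62-fold higher (1.55 to 1.69) and Apoe 1.17-fold lower (1.14 to 1.21). The receptor and the lipase thus moved one way and the lysosomal, carrier and lectin genes the other. Heat shock genes (Hspa1b, Hspa1a) were among the genes that led the hypoxic cluster; their part in the ratios was not tested.

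Conventional DC-like cells of the same library had less of most members than C1q macrophage-like cells. Trem2 was 23.1-fold (17.2 to 31.8), Apoe 34.3-fold (30.1 to 39.4), Lpl 11.3-fold (10.4 to 12.3), Spp1 9.44-fold (8.29 to 10.8) and Gpnmb 8.02-fold (4.83 to 14.4, from 15 UMIs in the DCs) lower, which is 5 of 7 genes beside 20.5% of 11291 genes in either direction (8.60% higher, 11.9% lower). Fabp5 was 1.76-fold and Lgals3 1.70-fold lower. The pooled Fabp5 level included 49 mature DC-like cells at 3590 CPM. DC1-like cells had 106 and DC2-like cells 224 CPM of Fabp5, against 952 in the macrophages, more than 2-fold lower in each. That Fabp5 was not among the 5 genes thus rests on the mature cells in the pool. The complement C1q genes, markers of the macrophage class, were at 389 CPM in these DCs and 7907 in the macrophages. Per C1q UMI the DCs held 0.0257 UMIs of Trem2, 0.128 of Apoe and 0.328 of Lpl, and the C1q macrophage-like cells 0.0292, 0.217 and 0.183. Trem2 thus kept nearly the same ratio to the C1q genes in the DCs as in the macrophages, Apoe was below and Lpl above it, and what share of the DC counts was free RNA was not tested.

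**Figure D2:**
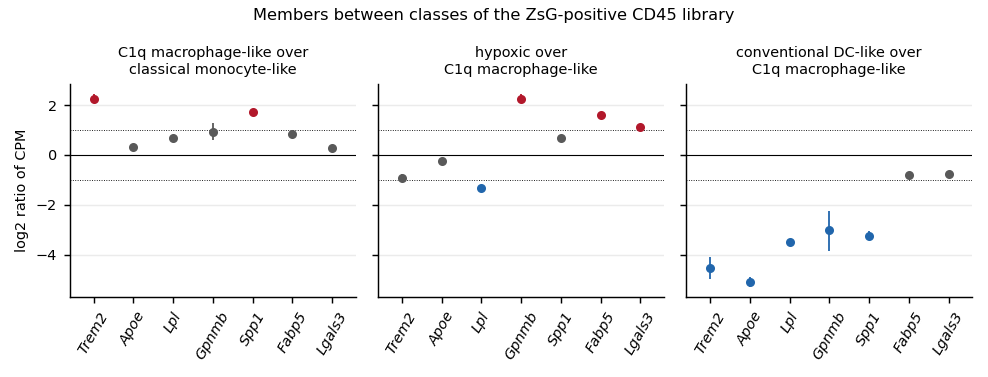
Log2 ratio of CPM of the 7 members between classes of the ZsG-positive CD45 library, with exact 95% intervals for counting error; red and blue mark at least 2-fold higher and lower, grey neither, and dotted lines 2-fold. Trem2 and Spp1 part macrophage- from monocyte-like cells, and Gpnmb, Fabp5 and Lgals3 part hypoxic from C1q macrophage-like cells with Lpl on the other side. In conventional DC-like cells, pooled with the Fabp5-rich mature ones, 5 of 7 genes are lower.

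Inside C1q macrophage-like cells the members were unevenly shared out. At least 50% of all Lgals3 UMIs came from 349 of the 1612 cells (21.7%) and 50% of those of Lpl from 282 (17.5%), Trem2 from 202 (12.5%), Apoe from 153 (9.49%) and Fabp5 from 118 (7.32%). Spp1 and Gpnmb were far more concentrated, with 50% of their UMIs in 41 (2.54%) and 38 cells (2.36%). The richest cell held 832 of the 11623 Spp1 UMIs (7.16%) and the level without it was 464 CPM, so the class level did not rest on 1 cell. In hypoxic macrophage-like cells 50% of the Gpnmb UMIs lay in 32 of 414 cells (7.73%) and 50% of the Spp1 UMIs in 23 (5.56%).

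The 256 cycling C1q macrophage-like cells kept Trem2 at 238 CPM, against 228 in the other 1356 (1.04-fold, 0.979 to 1.11). Apoe was 2.03-fold lower in the cycling cells (1.98 to 2.09), the only member past 2-fold beside 10.7% of 10961 genes (8.90% higher, 1.80% lower). Fabp5 was 1.77-fold, Lpl 1.52-fold, Lgals3 1.51-fold and Spp1 1.32-fold lower. A single cycling cell held 832 of the 2339 Spp1 UMIs of that group. Without it Spp1 was at 261 CPM in place of 402, against 531 in the other cells, about 2-fold lower. That Apoe was the only member past the limit therefore rests on that cell.

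The cells with Trem2 were more often positive for its partners. Among thinned, non-cycling C1q macrophage-like cells, 484 had a Trem2 UMI and 857 had none. Spp1 was found in 39.5% (35.1 to 44.0) of the first and 19.0% (16.4 to 21.8) of the second, Apoe in 80.2% (76.3 to 83.6) and 62.7% (59.3 to 65.9), Fabp5 in 63.6% (59.2 to 67.9) and 49.6% (46.2 to 53.0), and Lpl in 89.9% (86.8 to 92.4) and 80.6% (77.8 to 83.2). For Gpnmb the intervals of 6.82% (4.74 to 9.44) and 4.08% (2.86 to 5.63) overlapped, which does not show the shares to be equal. Gpnmb was found in 7.23% (5.46 to 9.35) of cells with and 2.47% (1.39 to 4.04) of cells without a Fabp5 UMI, without overlap. In hypoxic macrophage-like cells Gpnmb was likewise found in 26.2% (21.4 to 31.4) of cells with and 10.0% (4.42 to 18.8) of cells without Fabp5, but in 25.7% of cells with and 22.0% without Trem2. These splits compare cells of 1 library and are descriptions of it.

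Correlations of log levels over the 1356 non-cycling C1q macrophage-like cells, which share a library and differ in depth, were highest for Trem2 with Apoe (r = 0.43), Fabp5 with Lgals3 (0.40) and Trem2 with Spp1 (0.37), and Apoe with Lpl stood at -0.02. Trem2 with Gpnmb was 0.19 in these cells and 0.43 over the 256 cycling ones, and Gpnmb with Fabp5 0.34 and 0.47. Over the 414 hypoxic macrophage-like cells Trem2 with Apoe was 0.20 and Trem2 with Gpnmb was 0.03. These cells were not thinned, and median depth was 6610 UMIs in hypoxic, 11486 in non-cycling C1q and 21608 in cycling C1q macrophage-like cells. What part depth had in the differences between these correlations was not tested. At 3000 UMIs the median non-cycling C1q and the median hypoxic macrophage-like cell held 4 of the 7 members, and the median cycling C1q cell 3. At least 5 were held by 29.2% of non-cycling C1q, 21.2% of cycling C1q and 30.2% of hypoxic macrophage-like cells. All 7 were held by 13, 5 and 6 cells. Of the ZsG-positive classical monocyte-like cells 7.03% held at least 5, and 0 of 754 held all 7.

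Genes around the module were counted from lists chosen with the members. Of 14 TREM2 signaling genes, 1 was at least 2-fold higher and 1 lower in C1q macrophage-like than in classical monocyte-like cells: Ms4a7, a tetraspan gene that is also a marker of the class, was 7.58-fold higher and its relative Ms4a4a 3.4-fold lower. The median log2 ratio of the list was -0.09, beside 0.21 for all genes, and 12 of the 14 were within 2-fold. Over all genes tested 14.7% were higher and 5.02% lower, and the counts of this list, of the osteopontin and galectin-3 partners and of the regulators, few genes each, lie near that share and are no result about those lists. Of 20 further disease- and lipid-associated myeloid genes, 9 were higher and 1 lower (median 0.92), among them Timp2 (4.33-fold), the tetraspanin Cd63 (4.23-fold) and the elastase Mmp12 (3.17-fold). Of 26 tested genes for lipid uptake, storage and efflux, 7 were higher and 3 lower (median 0.30). The cholesterol exporter Abca1 was 3.95-fold and the oxysterol receptor Nr1h3 3.38-fold higher. Of 9 genes for receptors of osteopontin and partners of galectin-3, 2 were higher (Itga9 4.87-fold, Itgb5 2.78-fold) and 1 lower (Itga4 2.34-fold, median 0.19). Of 14 regulators, 3 were higher, with Pparg 2.5-fold beside Nr1h3, and 1 lower, Cebpb by 2.47-fold (median -0.15).

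In hypoxic over C1q macrophage-like cells, 6 of the 20 disease- and lipid-associated genes were higher and 1 lower (median 0.16), beside 6.86% higher and 14.8% lower of all genes (median -0.25). Mmp12 stood out with 474 against 23.9 CPM, 19.9-fold, and the adipocyte-type carrier Fabp4, which the lipid list also holds, was 3.57-fold and the growth factor Csf1 2.77-fold higher. Of the 14 regulators 4 were higher and none lower (median 0.39): Bhlhe41 10.2-fold, Bhlhe40 5.02-fold and Cebpb 2.70-fold. Of the lipid genes 6 were higher and 1 lower (median 0.18), with Abca1 2.77-fold and Fabp3 2.22-fold higher. TREM2 signaling genes gave 2 higher (Ms4a4a 2.98-fold, the kinase Syk 2.39-fold) and 1 lower, Ms4a7 by 3.34-fold (median -0.24), and the osteopontin and galectin-3 partners none higher and 1 lower, Itga4 by 2.17-fold (median -0.51). Cebpb, Ms4a4a and Ms4a7 therefore lay on opposite sides in the 2 comparisons. Both comparisons share the C1q macrophage-like cells, on opposite sides of the ratio, so a level extreme in that class gives this by itself. The counts of TREM2 signaling genes and of the osteopontin and galectin-3 partners, few genes each, lie near the share of all genes. They are no result about those lists.

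Gpnmb is also a gene of pigment cells, and pigment transcripts from the melanoma were present in these macrophages. The 5 pigment genes together stood at 30.7 CPM in C1q macrophage-like, 19.8 in hypoxic macrophage-like and 8.93 in ZsG-positive classical monocyte-like cells. In C1q macrophage-like over monocyte-like cells 4 of 4 tested pigment genes were higher (Tyrp1 4.44-fold, Pmel 3.22-fold, Dct 3.03-fold), beside 14.7% of all genes tested. In hypoxic over C1q macrophage-like cells 0 of 4 were apart, beside 21.6% of all genes, with a median log2 ratio of -0.71 against 2.26 for Gpnmb. Tyrp1 lay at the limit, with 3.4 against 7.0 CPM from 11 and 163 UMIs, a 2.06-fold lower level that was short of 2-fold once 0.5 was added to each count, as was done in all calls. Per pigment UMI, Gpnmb stood at 6.61 in hypoxic macrophage-like, 0.890 in C1q macrophage-like, 1.63 in monocyte-like and 0.0915 in the 25 tumor cell-like cells of the ZsG-negative library of the T cell sort, where 1 cell held 156 of the 246 Gpnmb UMIs. What part of the macrophages' Gpnmb came from tumor RNA was not tested.

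Over the 18 groups of the CD45 sort the members were not 1 pattern. Pearson's r of log2(CPM + 10) ranged from 0.03 (Apoe with Spp1) to 0.90 (Trem2 with Lpl), and was 0.85 for Trem2 with Apoe. Of 11172 genes, the most like Trem2 were Adgre1, itself a marker of the C1q macrophage class (0.98), Ecm1 (0.96) and Gm17749 (0.96), and the most like Lpl were the chemokines Ccl2 (0.97) and Ccl12 (0.97) and the scavenger receptor Msr1 (0.96). Apoe was closest to Dram2 (0.94), Clec4e (0.94) and Cyp4f18 (0.93), Gpnmb to Ahnak2 (0.99), Cox4i2 (0.98) and Slc7a2 (0.97), and Lgals3 to Anxa5 (0.96), Atf3 (0.95) and Aif1 (0.93). Fabp5 was closest to Cd63 (0.91), Plekhm2 (0.88) and Car13 (0.87). Spp1 had the weakest match, with Lmna (0.83), Zfp395 (0.82) and Tmem37 (0.81). Among the groups are the 25 ZsG-positive NK/ILC-like cells, where 1 cell held most of the 361 Spp1 UMIs. What part that cell had in the correlations of Spp1 was not tested. The groups share 2 libraries, so these values describe the shape of the levels only.

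Monocyte subsets were compared within each gate. In the ZsG-negative gate 197 non-classical and 40 classical monocyte-like cells differed at least 2-fold in 1 of the 5 members that could be counted. Of all 6714 genes tested 17.0% were apart (11.1% higher, 5.87% lower), so this count lies near that share and is no result about the members. Fabp5 was 3.99-fold lower (3.05 to 5.22) in the non-classical cells, a call that was lost when classes were drawn by the highest marker score (log2 ratio 0.09). In the classical cells 2 held 50% of the 105 Fabp5 UMIs, the richest 37, and the level without that cell was 202 in place of 304 CPM against 76.2 in the non-classical cells. Apoe (1.07-fold lower, 0.986 to 1.16) and Lgals3 (1.04-fold higher, 0.952 to 1.13) did not differ beyond counting error, and Trem2 was 1.75-fold higher with an interval of 0.961 to 3.51. In the ZsG-positive gate 41 non-classical cells had 2.25-fold more Trem2 (1.44 to 3.36) than 759 classical cells, and 4.01-fold less Lpl (3.07 to 5.35), 4.74-fold less Fabp5 (3.25 to 7.2) and 11.9-fold less Spp1 (3 against 855 UMIs, 4.06 to 57.9). Gpnmb had 0 against 83 UMIs, at least 1.16-fold lower against the floor of 3 UMIs, and passed 2-fold only with 0.5 added to each count. With it 5 of 7 genes were counted as apart, beside 27.7% of 8574 genes (13.6% higher, 14.1% lower).

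The gates could be compared within a class where both libraries held it. Classical monocyte-like cells, 759 ZsG-positive and 40 ZsG-negative, differed at least 2-fold in 3 of 7 members, all higher in the ZsG-positive gate, beside 17.4% of 8581 genes (10.0% higher, 7.41% lower). Lpl was 908 against 154 CPM, 5.91-fold (4.51 to 7.90). Spp1 had 855 UMIs against 0 and was at least 17.2-fold higher, counted against a floor of 3 UMIs. Gpnmb had 83 against 1 UMI, a ratio of 5.02 whose interval ran from 0.876 to 201, and as a mean of CPM per cell its log2 ratio was -0.03. Apoe went the other way, 1.55-fold lower (1.43 to 1.67). Fabp5 was 1.76-fold (1.45 to 2.16) and Lgals3 1.64-fold (1.51 to 1.77) higher, and Trem2 1.40-fold with an interval of 0.786 to 2.73, so that a difference in the receptor was not detectable with 12 UMIs in the smaller group. The C1q genes, which define the macrophages, also differed between these gates, at 1497 against 322 CPM, and their part in the ratios was not tested. Per C1q UMI the ZsG-negative monocyte-like cells held 6.56 UMIs of Apoe, 0.477 of Lpl and 0 of Spp1, and the ZsG-positive ones 0.911, 0.606 and 0.10. All 40 ZsG-negative cells lay in the cluster led by Dmkn, Vcan and Chil3, and the interferon-led cluster was ZsG-positive alone. Within the first cluster, with 601 ZsG-positive cells, Lpl was at 904 (876 to 933) against 154 CPM, Gpnmb at 6.1 (3.99 to 8.94) against 2.9 (0.0734 to 16.1), Fabp5 at 393 (375 to 413) against 304 (upper bound 368) and Apoe at 1442 (1406 to 1479) against 2110. Spp1 was at 151 (140 to 163) against 0 CPM (upper bound 10.7) and Lgals3 at 2602 (2554 to 2651) against 1866 (1725 to 2016). Trem2 was at 41.6 (35.7 to 48.2) against 34.8 (18.0 to 60.7). There the gates parted in Lpl, Spp1, Fabp5, Lgals3 and Apoe beyond counting error and not in Gpnmb or Trem2.

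Non-classical monocyte-like cells, 41 and 197, differed in 1 of 5 countable members, beside 11.0% of 6587 genes (3.51% higher, 7.53% lower): Lpl was 2.05-fold higher in the ZsG-positive gate (1.48 to 2.79). Trem2 was 1.79-fold higher (1.11 to 2.77) and Apoe 1.13-fold lower (1.02 to 1.25). In the T cell sort, 62 ZsG-positive and 28 ZsG-negative classical monocyte-like cells did not show the difference in Lpl (414 and 407 CPM, 1.02-fold, 0.811 to 1.28). Spp1 was 24.6-fold higher (11.1 to 67.5, 273 against 6 UMIs), of which 163 UMIs came from the single cell named above. Without that cell Spp1 was at 205 against 20.3 CPM. Trem2 had 10 against 11 UMIs and was 2.04-fold lower with an interval of 0.785 to 5.35; 2 of 6 countable members were apart, beside 8.07% of 4290 genes (4.48% higher, 3.59% lower).

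Conventional DC-like cells, 392 ZsG-positive and 119 ZsG-negative, differed in 3 of 6 countable members, all higher in the ZsG-positive gate, beside 10.2% of 9087 genes (6.31% higher, 3.86% lower). Lpl had 563 against 2 UMIs, 82.0-fold (22.6 to 679), and Trem2 44 against 1, 12.8-fold (2.18 to 518). Fabp5 was 541 against 230 CPM, 2.35-fold (2.08 to 2.66), and 49 of the ZsG-positive and 12 of the ZsG-negative cells were mature DC-like, the subset with the most Fabp5. Within DC2-like cells alone Fabp5 was at 224 against 71.9 CPM and Lpl at 120 against 2.40. Apoe was 1.89-fold (1.31 to 2.79), Spp1 1.66-fold (1.18 to 2.37) and Lgals3 1.43-fold (1.36 to 1.5) higher. With classes drawn by the highest marker score more members were apart, and Spp1 was lower in the ZsG-positive gate. In the ZsG-negative DCs 3 cells held the 34 Apoe UMIs and no C1q UMI was counted, whereas the ZsG-positive DCs held 389 CPM of C1q genes.

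Lpl in DCs sat in few cells. In the ZsG-positive library 106 of 392 conventional DC-like cells had a UMI of it and 10 of them (2.55%) held 50% of its 563 UMIs. Thinned to 3000 UMIs, Lpl was found in 15% (11.6 to 18.9) of these cells against 0.840% in the ZsG-negative gate, and Trem2 in 3.1% (1.61 to 5.35) against 0 of 119, which allows a share of up to 2.52% by 3 counts and 3.05% by the exact interval, so that the intervals for Trem2 overlap. A cluster that joined DC and monocyte markers, led by Vcan, Fn1 and Lyz2 and left out as mixed, had the highest Lpl of any cluster of the CD45 sort, 1799 CPM in 190 ZsG-positive cells.

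The other lists were counted between the gates as well. In classical monocyte-like cells 9 of 20 disease- and lipid-associated myeloid genes were higher and 2 lower in the ZsG-positive gate (median log2 ratio 0.89, beside -0.05 for all genes), 6 of 25 lipid genes were higher and 1 lower (0.42), and 1 of 14 TREM2 signaling genes was higher (0.05). In conventional DC-like cells 5 of 17 disease- and lipid-associated genes (0.65), 3 of 18 lipid genes (0.17) and 2 of 13 TREM2 signaling genes (0.08) were higher and none lower, beside a median of -0.03 for all genes. Of all genes tested 10.0% were higher and 7.41% lower in the monocyte-like cells, and 6.31% and 3.86% in the DC-like cells. The counts of TREM2 signaling genes in both classes and of lipid genes in DC-like cells are few, and are no result about those lists. The difference between the lists was not tested.

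**Figure D3:**
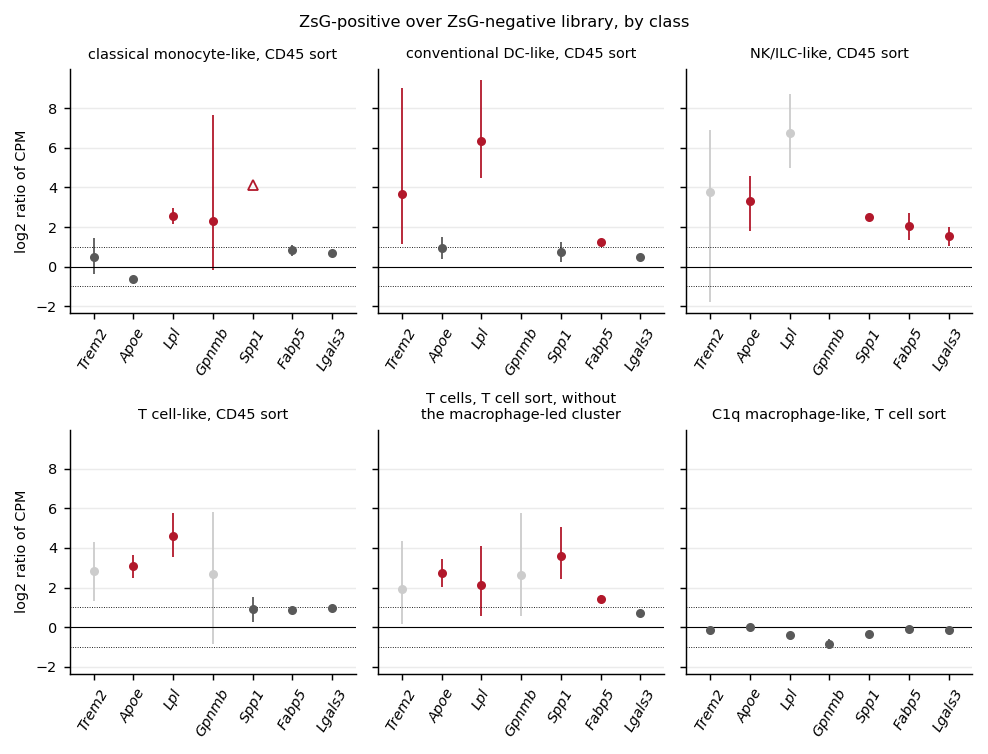
Log2 ratio of CPM, ZsG-positive over ZsG-negative library, for the 7 members in 6 classes, with exact 95% intervals for counting error; red marks at least 2-fold higher, dark grey neither and light grey fewer than 20 UMIs over both libraries. The open triangle is the bound for Spp1, with no UMI in the ZsG-negative monocyte-like cells; Lpl is raised in monocyte-, DC- and T cell-like cells, while C1q macrophage-like cells of the T cell sort, in both gates, lie within 2-fold.

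C1q macrophage-like cells of the T cell sort were the only macrophage class with at least 20 cells in both gates. The 170 ZsG-positive and 49 ZsG-negative C1q macrophage-like cells had Trem2 at 276 and 308 CPM (0.894-fold, 0.783 to 1.02), Apoe at 2661 and 2678 (0.994-fold, 0.951 to 1.04) and Fabp5 at 2165 and 2292 (0.944-fold, 0.900 to 0.991). Lpl was at 1302 and 1706, Spp1 at 1427 and 1816, Lgals3 at 4951 and 5384 and Gpnmb at 116 and 207 CPM, the last a ratio of 0.561 (0.470 to 0.671). None of the 7 was 2-fold apart, beside 4.45% of 8251 genes (2.69% higher, 1.76% lower), and each interval but that of Gpnmb lay wholly within 2-fold. These sums join 2 clusters that the gates held in different numbers, and within them Apoe parted the gates, as given below. Of 20 disease- and lipid-associated myeloid genes, 1 was lower and 0 higher in the ZsG-positive C1q macrophage-like cells, and 0 were apart with the monocyte-like cells added. Few of all genes were apart, so these counts and those of the 7 members lie near that share. They are no result about the lists. Gpnmb in the ZsG-negative cells rested on few of them: 1 cell held 75 of the 213 UMIs, and the level without it was 138 CPM. With the monocyte-like cells added, 232 against 77 cells, again 0 of 7 were apart, from 0.585 for Gpnmb to 1.01 for Fabp5, beside 3.77% of 8579 genes (2.31% higher, 1.46% lower). These cells had passed a gate for TCRb, and whether they stand for the other macrophages of the tumor was not tested.

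The macrophages of the T cell sort split into clusters along the module in both gates. The one led by Pmp22, a histone gene and Pf4 (56 ZsG-positive and 25 ZsG-negative cells) had Trem2 at 526 and 494, Spp1 at 2896 (2793 to 3001) and 2506 (2378 to 2640), Fabp5 at 3596 and 3239 and Gpnmb at 198 and 349 CPM. The one led by Gbp2b and the class II genes H2-Eb1 and H2-DMb1 (114 and 24 cells) had Trem2 at 116 and 83.6, Spp1 at 492 and 980, Fabp5 at 1253 and 1145 and Gpnmb at 63.6 and 34.3 CPM. Lpl differed less, at 1391 and 1921 in the first and 1245 and 1446 in the second. Apoe was at 3253 (3144 to 3364) and 4126 (3960 to 4297) in the first and at 2284 (2211 to 2358) and 924 (839 to 1016) in the second, so in the class II cluster it was more than 2-fold higher in the ZsG-positive gate and in the Pf4 cluster it was lower there. Spp1, at 492 and 980, went the other way in the class II cluster. In both gates Trem2, Apoe, Spp1, Fabp5 and Gpnmb were higher in the Pf4 cluster than in the class II cluster. The members took no part in drawing these clusters, but other genes of the same cells did, so the difference is a description. Over the 170 ZsG-positive cells Trem2 had its highest correlation with Fabp5 (r = 0.54) and reached 0.41 with Gpnmb, and Gpnmb was found in 27.1% (15.3 to 41.8) of cells with and 8.20% (4.0 to 14.6) without a Trem2 UMI when cells were thinned to 2000 UMIs.

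Spp1 was also high in a cycling, Gzmd-led cluster of NK/ILC-like cells. Cycling was called for whole clusters, so the cycling cells here are 1 cluster set against the rest. In the ZsG-negative CD45 library, 234 cycling NK/ILC-like cells had 952 CPM (922 to 983) of it and the other 2273 had 50.3, a ratio of 18.9 (17.3 to 20.7). The cycling cells carried no UMI of Trem2 or Lpl and 3 of Gpnmb, and Fabp5 was 3.55-fold higher in them (2.85 to 4.42, 47.9 against 13.5 CPM), so that 2 of 4 countable members were apart, beside 15.6% of 10588 genes (7.65% higher, 7.92% lower). The cluster was led by Gzmd and cell cycle genes and had 4866 CPM of the granzyme Gzmc. The next level was 184 CPM (149 to 226) in 79 cells led by Tmem176b, followed by 84.0 (74.9 to 94.0) in 608 cells led by Xcl1 and 45.9 (28.0 to 70.9) in interferon-led cells. Cells led by Sult2b1, 542 in number, had 4.16 (1.79 to 8.19). Gzmc was at 533, 741, 156 and 34.3 CPM in the clusters led by Tmem176b, Xcl1, interferon-induced genes and Sult2b1. What part cycling or the granzyme state had in the Spp1 level was not tested.

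Thinned to 3000 UMIs, Spp1 was found in 50% (43.4 to 56.6) of the cycling and 4.52% of the other NK/ILC-like cells (68.8% unthinned in the cycling cells, whose median depth was 15625 UMIs), against 1.02% of T cell-like cells. In the cycling cells 50% of the Spp1 UMIs lay in 13 of 234 cells, and the level without the richest cell was 829 CPM. Per C1q UMI these cells, with 8 C1q UMIs in all, held 462 UMIs of Spp1. The C1q macrophage-like cells of the ZsG-positive gate held 0.0631.

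Among NK/ILC-like cells of the 2 gates, 25 ZsG-positive against 2507 ZsG-negative, all 4 countable members were higher in the ZsG-positive library, beside 24.3% of 10607 genes (14.1% higher, 10.2% lower): Spp1 5.76-fold (5.16 to 6.42), Apoe 9.98-fold (3.46 to 23.6, from 6 and 41 UMIs), Fabp5 4.21-fold (2.57 to 6.54) and Lgals3 2.9-fold (2.06 to 3.98). Lpl had 8 against 5 UMIs, fewer than the minimum. Of the 25 cells 13 were cycling, against 234 of 2507, and 1 cell held 74.5% of the Spp1 UMIs; at 443 CPM without that cell, Spp1 lay between the cycling and the other ZsG-negative cells. The C1q genes stood at 143 CPM in the ZsG-positive and 3.21 in the ZsG-negative NK/ILC-like cells. Per C1q UMI, of which there were 32, the ZsG-positive cells held 0.0312 UMIs of Trem2 (1 UMI), 0.188 of Apoe (6 UMIs) and 0.25 of Lpl (8 UMIs). C1q macrophage-like cells held 0.0292, 0.217 and 0.183, and counts this small cannot tell whether the ratios are alike. For Spp1 the ZsG-positive NK/ILC-like cells held 11.3 against 0.0631.

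Fabp5 in T cell-like cells was higher in cycling cells. In the ZsG-negative CD45 library 294 cycling T cell-like cells had 263 CPM (253 to 273) and the other 1136 had 69.3, 3.79-fold (3.48 to 4.14), and at 3000 UMIs Fabp5 was found in 48.0% and 8.96% of them. Apoe was 2.25-fold lower in the cycling cells on 17 and 37 UMIs (1.24 to 4.26), so 2 of 4 countable members were apart, beside 20.5% of 10795 genes (8.57% higher, 11.9% lower). A cluster led by Ccl4, Ccl3 and Ifng had 138 CPM of Fabp5 (127 to 150), and the largest, 572 cells led by Klra7, 10.9 (7.53 to 15.4). Fabp5 counts in T cells were spread over many cells, 50% of the 2558 UMIs of the cycling cells lying in 63 of them.

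Fabp5 in dendritic cells was highest in the mature subset. Mature DC-like cells of the ZsG-positive gate, led by Fscn1, Ccl5 and Ccr7, had 3590 CPM against 189 in DC1- and DC2-like cells together, 19.0-fold (17.4 to 20.7), and at 3000 UMIs Fabp5 was found in 91.7% (80.0 to 97.7) of them. Lpl was 7.10-fold (3.71 to 15.6), Spp1 8.84-fold (2.99 to 43.2, from 3 UMIs) and Lgals3 2.36-fold (2.15 to 2.60) lower, so 4 of 6 countable members were apart, beside 36.4% of 8627 genes (11.5% higher, 24.9% lower). The T cell sort gave 2296 CPM of Fabp5 (2185 to 2412) in 61 ZsG-positive mature DC-like cells, and the 12 of the ZsG-negative CD45 library 2450 CPM.

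**Figure D4:**
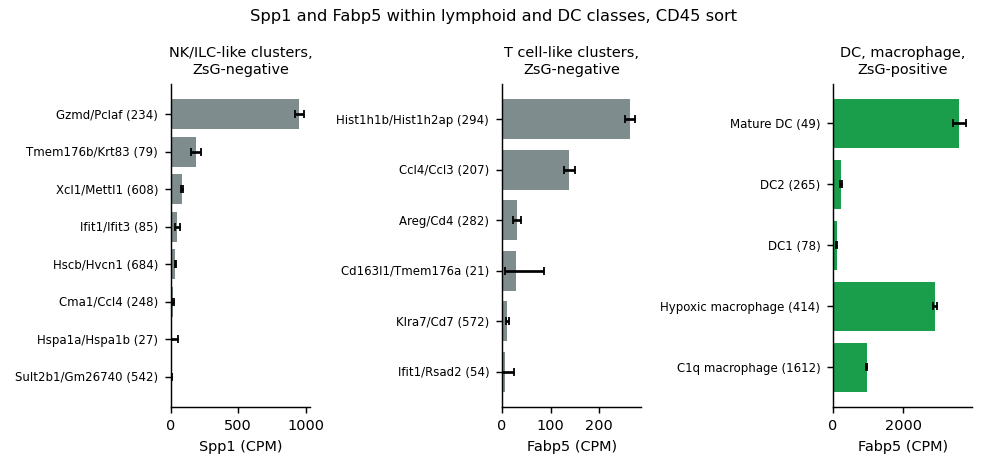
Level (CPM) of Spp1 in the NK/ILC-like clusters and of Fabp5 in the T cell-like clusters of the ZsG-negative CD45 library, and of Fabp5 in dendritic and macrophage classes of the ZsG-positive CD45 library. Bars are summed levels from 0, whiskers exact Poisson 95% intervals, and each label gives leading genes or class with the number of cells. Spp1 is led by the cycling Gzmd cluster (952 CPM), and Fabp5 by the cycling T cell-like cluster (263 CPM) and by mature DCs (3590 CPM).

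T cells showed small amounts of the macrophage genes that followed the gate. In the CD45 sort, 116 ZsG-positive and 1430 ZsG-negative T cell-like cells differed at least 2-fold in 2 of 5 countable members, beside 8.72% of 10927 genes (3.07% higher, 5.65% lower): Lpl at 13.9 against 0.575 CPM (24.1-fold, 11.6 to 53.9, from 27 and 11 UMIs) and Apoe at 23.6 against 2.82 CPM (8.38-fold, 5.53 to 12.6). Trem2 had 8 against 11 UMIs, under the minimum. Lgals3 was 1.94-fold (1.77 to 2.12), Spp1 1.90-fold (1.21 to 2.88) and Fabp5 1.80-fold (1.65 to 1.97) higher, and 64 of the 116 against 294 of the 1430 cells were cycling. Among cycling cells Fabp5 was at 332 (304 to 363) against 263 CPM (253 to 273), and among the others at 211 (172 to 256) against 69.3 (64.0 to 74.8), so it was higher in the ZsG-positive gate in either state. The C1q genes moved with the members, at 107 against 6.37 CPM. Per C1q UMI the ZsG-positive T cell-like cells held 0.0385 UMIs of Trem2, 0.221 of Apoe and 0.130 of Lpl, near the ratios of C1q macrophage-like cells (0.0292, 0.217 and 0.183). Fabp5 stood at 2.83 per C1q UMI against 0.120 in the macrophages, far from that proportion.

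In the T cell sort, T cells were taken as cells with at least 0.055% of their UMIs from the CD3 genes, 780 ZsG-positive and 659 ZsG-negative. Of the 7 members 5 were at least 2-fold higher in the ZsG-positive library, beside 7.56% of 10405 genes (5.99% higher, 1.58% lower): Apoe 5.75-fold (5.00 to 6.63), Trem2 3.67-fold (2.37 to 5.93), Fabp5 3.28-fold (3.00 to 3.59), Gpnmb 2.78-fold (1.53 to 5.38) and Lgals3 2.11-fold (1.99 to 2.24). These sums held a cluster led by macrophage genes, 51 ZsG-positive and 8 ZsG-negative cells, which was set aside in an alternative chosen after the data were seen. Without it, on 729 and 651 cells, 4 of 5 countable members were higher, beside 5.69% of 9966 genes (3.91% higher, 1.78% lower). Apoe was 6.59-fold (4.14 to 11.0), Spp1 12.1-fold (5.38 to 33.8, 101 against 6 UMIs), Lpl 4.32-fold (1.48 to 17.1, 24 against 4 UMIs) and Fabp5 2.66-fold (2.35 to 3.02) higher, and Lgals3 1.67-fold (1.53 to 1.83). Trem2 (16 against 3 UMIs) and Gpnmb (17 against 2) were too few to be counted.

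The levels left in those T cells were low, and 1 cell weighed on some. Of the 183 Apoe UMIs of the ZsG-positive cells 104 came from 1 cell, and without it Apoe was at 12.1 in place of 28.0 CPM, against 4.25 in the ZsG-negative cells. For Spp1 1 cell held 45 of 101 UMIs, and the level without it was 8.61 in place of 15.4 CPM, against 1.27. Fabp5, at 181 against 68.0 CPM, was at 169 without its richest cell. C1q genes were at 54.1 against 13.4 CPM and Lyz2, a myeloid gene, at 47.5 against 12.1 in the same cells. Per C1q UMI the ZsG-positive T cells held 0.0452 UMIs of Trem2, 0.517 of Apoe, 0.0678 of Lpl and 0.285 of Spp1, and the C1q macrophage-like cells of that library 0.0417, 0.403, 0.197 and 0.216, whereas Fabp5 (3.34 against 0.328) and Lgals3 (4.84 against 0.749) stood above the macrophage proportion. The Apoe and Spp1 ratios include the richest cells named above, and their place beside the macrophage ratio rests in part on those cells. What part of the T cells' Trem2, Apoe, Lpl and Spp1 counts came from free RNA or attached macrophages was not tested.

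Fabp5 also differed between the gates within some T cell clusters of the T cell sort. In the cluster led by Foxp3 and Areg it was at 184 CPM (153 to 219) in 99 ZsG-positive and 55.1 (25.2 to 105) in 29 ZsG-negative cells, in the Gzmk cluster at 122 (102 to 145) and 30.9 (21.2 to 43.7) in 181 cells each, and in the Dapl1 and Ccr7 cluster at 146 (105 to 197) and 9.98 (4.01 to 20.6). In cycling cells the levels were 295 (270 to 321) and 227 (191 to 268), and in the Ccl3 and Ifng cluster 133 (118 to 150) and 108 (86.5 to 133), whose intervals overlapped. The Klra7 and Klra1 cluster had 36.5 (22.6 to 55.8) in 101 and 19.1 (11.1 to 30.6) in 145 cells, again with overlap. The cluster led by Ramp3 and Cd40lg went the other way, 21.5 (8.65 to 44.3) and 54.0 (35.3 to 79.2), with overlapping intervals.

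**Figure D5:**
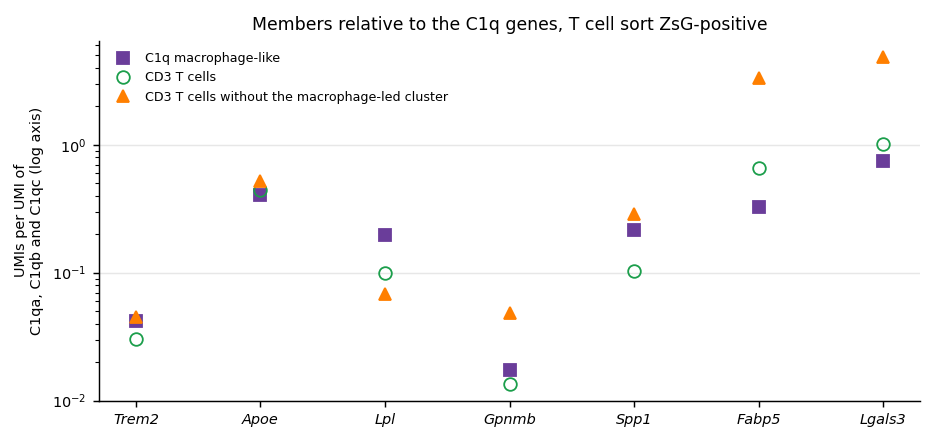
UMIs of each member per UMI of C1qa, C1qb and C1qc (log axis) in the ZsG-positive library of the T cell sort, for C1q macrophage-like cells (squares), all CD3 T cells (circles) and CD3 T cells without the macrophage-led cluster (triangles). Trem2 and Apoe of the T cells lie near the macrophage ratio and Lpl lies below it. Spp1 is below it in all CD3 T cells (0.103 against 0.216) and above it without the macrophage-led cluster (0.285). Fabp5 (3.34 against 0.328 without that cluster) and Lgals3 (4.84 against 0.749) lie above it. Without that cluster, the Apoe and Spp1 ratios include the richest single cell for each gene, and their place beside the macrophage ratio rests in part on it.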

How the data were processed

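Single-cell 3′ RNA-seq was analysed for 4 libraries, ZsG-negative and ZsG-positive cells of a CD45 sort and of a T cell sort, with groups taken from the labels and 1 library per gate and sort. The authors deposited raw UMI counts per gene and cell, made with Cell Ranger on mm10: the matrix headers name version 7.0.0 for the CD45 sort and 6.1.2 for the T cell sort, and the submitters' processing notes 6.1.2. The sources used here do not give whether aggregation evened out the depth of the libraries. In the T cell sort the cell suffixes were matched to gates by the order in the label of the pooled files (ZsG-positive first); the numbers in the library names have the other order. The 7 members and the gene lists were chosen with earlier results of these data known.

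Cells with 1000 to 6000 genes and less than 10% mitochondrial UMIs (CD45 sort), or 50 to 6000 genes and less than 15% (T cell sort), were kept. Clustering used Seurat 5.3.0 in R 4.3.3 (2000 variable genes without the members and lists, 20 components, resolution 0.8, then 0.5 within pools), and clusters took a name only from markers. Cycling was called for whole clusters, from cell cycle genes among their leading genes. T cells of the T cell sort were cells with at least 0.055% of UMIs from CD3 genes. Doublets were not removed, since the caller in scanpy 1.11.5 marked 0 to 11 cells per library and so did not work here. The UMIs of all cells in a class were added up. Calls and medians over genes used ratios with 0.5 added to each count, 20 UMIs over both groups and a 2-fold limit, the folds given for single genes had nothing added, and the ratio script was tested on simulated data. Genes named from the lists were the 3 with the largest ratio among those with at least 100 UMIs, and likeness used log2(CPM + 10). Intervals and floors (3 counts) cover counting error only. Per comparison up to 12 alternatives were run, among them edgeR 4.0.16 TMM factors, marker scores, thinning and mitochondrial limits. Python 3.11.15, scipy 1.17.1 and pandas 2.3.3 were used.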

Additional observations from a re-analysis of the deposited data

Results flagged for a closer look

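The T cell sort also held 31 tumor cell-like cells, 25 in the ZsG-negative and 6 in the ZsG-positive library, with a median of 2538 UMIs, which entered no comparison. They are listed here because 4 of the 7 members were found in them above what a count of 0 allows (17.6 CPM): Apoe at 2169 CPM (1953 to 2402), in 64.5% of the cells, Gpnmb at 1475 (1298 to 1670), in 58.1%, Fabp5 at 893 (757 to 1047), in 90.3%, and Lgals3 at 558 (452 to 683), in 29.0%. No Trem2 UMI was found, and Lpl and Spp1 had 1 UMI each. The same cells held 6325 CPM of Dct and 4273 of Pmel. The levels of Apoe and Gpnmb rested in part on 1 ZsG-negative cell, which held 181 of 359 Apoe UMIs or 156 of 246 Gpnmb UMIs of that library; without its richest cell Apoe was at 1859 and Gpnmb at 940 CPM there. In the 6 ZsG-positive cells Apoe was at 416 (199 to 764) and Gpnmb at 208 CPM (67.5 to 485).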

How the results depend on the processing

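Of 125 alternative counts of members apart and shares, 110 stayed near the value given and 15 moved; of 779 alternative single ratios and shares, 545 stayed, 232 moved and 2 changed sign. In C1q macrophage-like over classical monocyte-like cells, 4 members in place of 2 were apart with classes from the highest marker score, with resolutions of 0.4 and 0.3 and with the members among the clustering genes. In non-classical over classical monocyte-like cells of the ZsG-negative gate the count was 2 in place of 1 with no UMI minimum, by marker score and with the members among the clustering genes, and by marker score the log2 ratio of Fabp5 turned to 0.09. By marker score 7 members in place of 3 differed between the gates in DC-like cells, with Spp1 lower. With no UMI minimum 7 in place of 4 differed in NK/ILC-like cells, Gpnmb among them on 0 against 12 UMIs with 0.5 added. In the CD45 sort's T cell-like class the count of 2 became 4 with no minimum, 1 with 100 UMIs, 7 by marker score, 4 without the top 5% of doublet scores and 5 as a mean of CPM per cell. In T cells of the T cell sort thinning left 3 of 5. As a mean of CPM per cell, Gpnmb in classical monocyte-like cells between the gates had a log2 ratio of -0.03. The share of C1q macrophage-like cells with Trem2 was 64.7% unthinned. Apart from the unthinned share, the cause of these changes was not tested. Leaving out the macrophage-led T cell cluster and leaving out cycling cells were chosen after the data were seen. The NK/ILC comparison could not be run below 5% mitochondrial UMIs or without cycling cells, where fewer than 20 cells were left.

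No paired analysis was possible because each gate of each sort was 1 library, with 1 replicate number, fewer than the 2 a block needs, and leaving out a replicate was impossible. Classes under 50 cells, such as the 25 ZsG-positive NK/ILC-like and 40 ZsG-negative classical monocyte-like cells, give the widest intervals.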
